A study of Mus musculus with 15 samples.

Results

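Alveolar macrophages of beta6 null mice that carried TGFb1 were compared with those of wild type mice, to describe what still separated the 2 groups. The comparison used 10 of the 15 arrays of the study: the 5 labelled b6-/-TGFb+/+Dox, called the TGFb1 group below, and the 5 labelled b6+/+Dox, called wild type. The remaining 5 arrays, labelled b6-/-Dox and called beta6 null, entered the fit and are set beside single results. On each 2-colour spotted oligonucleotide array, total RNA of alveolar macrophages was hybridised against a common reference.

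The TGFb1 group lacked the integrin beta6 subunit and carried added TGFb1. Wild type had the subunit, and beta6 null lacked it without added TGFb1. All 3 groups had received doxycycline, the drug used to turn on inducible transgenes, so it does not differ between them. The labels do not name the promoter or cell type that drove TGFb1, the strain or the age of the mice. They also do not say whether each array held RNA of 1 animal or of a pool, so p-values reflect only how far these samples scatter, and that scatter may be technical. Wild type mice with added TGFb1 were not analysed here. A difference between the TGFb1 group and wild type does not by itself tell apart the absence of the subunit and the presence of added TGFb1. By the labels, beta6 null differs from wild type in the subunit and from the TGFb1 group in added TGFb1, and it is set beside single results only.

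TGFb is secreted in a latent form, held inactive by its own propeptide. The integrin alphavbeta6, found on epithelium, binds that propeptide and frees the active factor, which then signals through type I and type II receptors to Smad transcription factors. In the lung, TGFb supports the mature state of alveolar macrophages and holds down macrophage elastase, the product of Mmp12, and mice without beta6 are known for emphysema that depends on that enzyme.

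Each value is taken as a log2 ratio of sample to reference, on arrays centred on their medians. A value of 1 is thus a ratio of 2 relative to the array's median. Base and direction are not stated in the labels or the deposited table. Base 2 is an assumption, on which every fold value below rests. The direction is only likely, since it rests on the reference being listed as the first channel and on Mmp12, and every sign below would turn if it were the other way. A difference is always the TGFb1 group minus wild type, unless another pair is named.

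Upstream sequences are shown for 3 genes whose groups did not overlap: Flt1 and Egr2, both lower in the TGFb1 group, and Igf1, which was higher. They were chosen after their values were seen. Each is the 250 bases before the first annotated start in RefSeq (build GRCm38.p6), read 5′ to 3′ on the strand of the gene. Capitals mark matches, on either strand, to one of 6 motifs: an AP-1 site (TGANTCA), a CRE (TGACGTCA), an EGR site (GCGNGGGCG), a SMAD palindrome (GTCTAGAC), an E-box (CACGTG) and the CArG box.
Flt1, chr5:147726012-147726261, minus strand: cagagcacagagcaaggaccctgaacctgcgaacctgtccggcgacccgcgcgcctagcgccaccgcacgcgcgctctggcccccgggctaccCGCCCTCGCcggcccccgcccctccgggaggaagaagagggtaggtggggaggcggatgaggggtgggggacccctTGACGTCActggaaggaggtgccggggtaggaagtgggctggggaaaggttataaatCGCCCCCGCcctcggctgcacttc
Egr2, chr10:67535249-67535498, plus strand: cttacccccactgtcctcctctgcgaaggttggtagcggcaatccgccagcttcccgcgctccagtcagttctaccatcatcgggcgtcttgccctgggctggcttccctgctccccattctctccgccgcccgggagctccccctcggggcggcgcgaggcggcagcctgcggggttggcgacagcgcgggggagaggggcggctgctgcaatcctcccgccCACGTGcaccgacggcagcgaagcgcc
Igf1, chr10:87860861-87861110, plus strand: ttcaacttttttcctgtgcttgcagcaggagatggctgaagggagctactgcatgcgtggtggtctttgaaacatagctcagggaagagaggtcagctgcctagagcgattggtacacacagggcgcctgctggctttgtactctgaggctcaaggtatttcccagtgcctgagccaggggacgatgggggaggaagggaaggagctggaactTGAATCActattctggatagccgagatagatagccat
The Flt1 window held a CRE at positions -81 to -74 and EGR sites at -157 to -149 and at -24 to -16, counted from the start. A CRE was found in 1.55% and an EGR site in 4.70% of all 32851 RefSeq windows of that length. The Egr2 window held an E-box (6.02% of windows) at -27 to -22, and the Igf1 window held an AP-1 site (6.75%) at -37 to -31. The windows of Mmp12 and Id2 held 0 matches to the 6 motifs. The SMAD palindrome was found in 0.167% and the CArG box in 1.47% of windows. A match describes letters only.

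The TGFb1 arrays held 13093 to 16310 values and the wild type arrays 11714 to 16131, out of 17225 probes. The SD of a single array ran from 0.845 to 1.40 in the TGFb1 group and from 0.841 to 2.01 in wild type, where replicate 2 was the widest. Arrays correlated at a median r of 0.351 within the TGFb1 group, 0.377 within wild type and 0.333 between the groups. A ratio to a reference does not show whether a marker is present. The probes of the alveolar macrophage markers Siglecf, Marco, Car4 and Itgax gave a value on all 10 arrays. So did 8176 of 13273 features tested, and 23 of 38 measured olfactory and vomeronasal receptors, so such values do not check the cell type. The X-inactivation transcript Xist read -3.48 to -2.27 in the TGFb1 group and -4.14 to -2.37 in wild type, against -2.46 to 0.88 in beta6 null. The Y-linked Eif2s3y read -1.16, -1.05, -0.36, 0.32 and -0.13 on TGFb1 replicates 1 to 5. It read -2.25 to -0.10 in wild type and -3.75 to -0.80 in beta6 null. Both transcripts differ between the sexes, and sex was not assigned here. Its part in results that involve beta6 null, or in differences among the TGFb1 arrays, was not tested. The array numbers in the titles fall into runs, of which 168 to 172 (TGFb1 replicates 1 and 2, wild type replicate 1) and 176 to 180 (TGFb1 replicates 3 and 4, wild type replicates 2 and 3) hold both groups, and the labels do not say what the numbers stand for. With the run as a block, 0 features were called and 1053 stood at an unadjusted p under 0.05. Of 81 genes described below with a value in both runs, 75 had the same sign within each as over all arrays, and Desi1, Dpp4, Id3, Plbd1, Rbp4 and Tgfb1 did not.

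The disrupted gene, Itgb6, read -1.13, 1.19, 0.16, 0.06 and 0.33 on TGFb1 replicates 1 to 5, as the mean of 2 probes. In wild type it read -0.18, 0.42 and -0.21 on replicates 1, 4 and 5, was at the array median on replicate 3 and had no value on replicate 2. The groups overlapped (difference 0.12, SE 0.40), and the labels do not place the probes relative to the disrupted part. The Tgfb1 probe read -2.21 on TGFb1 replicate 1 and -0.60 to -0.14 on the other 4 TGFb1 arrays. In wild type it read -4.84 on replicate 2 and -0.06 to 0.12 on the rest. The groups differed by less than the SE (difference 0.25, SE 0.95), and the difference turned to -0.73 without wild type replicate 2. Whether the probe reads the transgene is not given. Neither gene therefore checks the labels.

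Of 16132 features, a feature being a gene symbol or an unnamed probe, 13273 were tested, each with 3 or more values in every group. None passed an adjusted p of 0.05 (limma, Benjamini-Hochberg, 0 called or 0.0%), and the smallest adjusted p was 0.276. At an unadjusted p under 0.05 stood 833 features, or 6.28%, of which 564 (4.25%) were higher and 269 (2.03%) lower in the TGFb1 group. In the same fit, 126 features were called between beta6 null and wild type and 94 between the TGFb1 group and beta6 null. These 3 comparisons share arrays in pairs, and their counts are not independent.

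On 8176 features with a value on all 10 arrays, all TGFb1 arrays lay above all wild type arrays for 142 (1.74%) and below them for 51 (0.624%). The median difference of all features was 0.07, with quartiles of -0.30 and 0.45, and 55.4% were above 0. The median was 0.12 on features complete in all 10 arrays and -0.02 on the others. The median SE of a difference was 0.49, and 1643 features differed by more than 1 in size. Since 0 features were called, differences below are given with their values and SE, as descriptions of these arrays. In bulk RNA such as this, fewer cells of a type and less RNA per cell cannot be told apart.

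Flt1, the receptor VEGFR1 through which VEGF and placental growth factor act on monocytes and endothelium, had the widest gap of the lower genes with a symbol and values on all 10 arrays. It read -2.58, -1.73, -1.20, -1.66 and -1.55 on TGFb1 replicates 1 to 5 and 1.08, 2.03, 1.03, 1.07 and 0.80 on wild type replicates 1 to 5. All TGFb1 arrays lay below their array's median ratio and all wild type arrays above it, with a gap of 2.01 between the groups. The difference was -2.95 (SE 0.54, adjusted p = 0.319), a 7.71-fold lower ratio. It was called with the 10 arrays fitted alone (adjusted p = 0.0401), with array weights (0.00133) and without beta6 null replicate 1 (0.0453), in a range of 0.00133 to 0.979 over 29 alternatives. The beta6 null arrays read -4.73 to -0.89 for Flt1.

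Egr2, an inducible zinc finger transcription factor of macrophages, read 0.04, 0.06, 1.21, 1.06 and -0.29 in the TGFb1 group and 2.02, 2.64, 1.95, 1.95 and 2.30 in wild type. The lowest wild type array was 0.74 above the highest TGFb1 array. The difference was -1.76 (SE 0.32, adjusted p = 0.319). Noct, a circadian phosphatase also called nocturnin, read 0.38, -0.25, 0.24, 0.12 and 0.13 against 1.07, 1.20, 1.71, 0.88 and 1.47. Its groups stood 0.50 apart and differed by -1.14 (SE 0.24, adjusted p = 0.578). Beta6 null arrays lay below the TGFb1 arrays for both genes, at -1.22 to -0.45 for Egr2 and -1.72 to -1.07 for Noct.

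Rrm2, the small subunit of ribonucleotide reductase, which makes the building blocks of DNA, had nearly the same value on all 5 TGFb1 arrays. It read -1.39, -1.504, -1.37, -1.30 and -1.41 in the TGFb1 group and -0.36 to -0.002 on the 4 wild type arrays with a value. The difference was -1.26 (SE 0.28, adjusted p = 0.651). Rrm2, the proliferation antigen Mki67 (-1.47, SE 0.48) and the mitotic kinase Plk1 (-2.38, SE 0.73) were the 3 of 70 measured cell cycle and DNA replication genes at an unadjusted p under 0.05, all lower. That share, 4.29%, lay below the 6.28% of all features. Plk1 had a value on 3 wild type arrays only, and the list as a whole had a median difference of 0.10, with 38 genes above 0 and 32 below.

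Tnfsf13b, the B cell survival factor BAFF, read -2.02 to -1.25 in the TGFb1 group and -0.55 to 0.23 in wild type, with no overlap (difference -1.28, SE 0.31). Wfdc1, a small secreted protein with a protease inhibitor fold, read 0.27, 0.16, 0.31, 0.41 and -0.54 against 0.75 to 1.12 (difference -0.79, SE 0.23). The gap between the groups was 0.34, with TGFb1 replicate 5 the farthest from wild type. Prdm1, the transcriptional repressor Blimp-1, overlapped on TGFb1 replicate 3 (0.09), the other 4 TGFb1 arrays lying at -1.66 to -0.81 and wild type at -0.27 to 1.44 (difference -1.47, SE 0.50). Clec4e, the receptor Mincle for mycobacterial glycolipid, read -1.13 to 0.97 against 1.11 to 2.17, with no overlap (difference -1.66, SE 0.50). Zeb2, a transcription factor of tissue macrophages, read -0.92 to 0.76 against 1.43 to 1.64 on 4 wild type arrays, but wild type replicate 3 read 0.55 (difference -1.38, SE 0.36).

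Larger differences on fewer or more variable arrays need the array values beside them. Inhba, which encodes the activin A subunit, a TGFb family ligand, read -2.03, 0.11, 1.25, -1.95 and 0.23 in the TGFb1 group. Wild type read 2.41, 2.99, 1.54 and 3.29 on the 4 arrays with a value, so that the groups did not overlap (difference -3.03, SE 0.74, adjusted p = 0.651). The 5 TGFb1 arrays themselves spanned more than 3 log2 units. Cd59a, an inhibitor of the terminal complement complex, read -3.21 to 1.94 against 2.54 to 4.24 on 4 arrays (difference -3.46, SE 0.87). Wwtr1, the Hippo pathway coactivator TAZ, read -4.06, -0.48, -0.74 and -1.35 on the 4 TGFb1 arrays with a value against 0.15 to 0.93 on 4 wild type arrays (difference -2.26, SE 0.67).

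Mmp12, macrophage elastase, which cleaves elastin of the alveolar wall, stood above wild type on every TGFb1 array. It read 2.66, 2.69, 2.69, 1.89 and 1.37 on TGFb1 replicates 1 to 5 and 0.33, 0.54, 0.15 and 0.03 on wild type replicates 1, 3, 4 and 5. Replicate 5 was the closest to the wild type arrays with a value. The difference was 1.997 (SE 0.42), a 3.99-fold higher ratio (limma, adjusted p = 0.578). The sign of Mmp12 carries no weight of its own, since that gene served to settle which way the ratio runs. In beta6 null it read 3.81 to 5.88.

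Igf1, insulin-like growth factor 1, which macrophages secrete in repair, read 1.42, 0.58, 0.13, 0.35 and 0.03 in the TGFb1 group and -2.19, -0.75, -1.71, -1.72 and -1.59 in wild type. The groups lay on opposite sides of the array median. The difference was 2.09 (SE 0.45, adjusted p = 0.578), a 4.27-fold higher ratio. Its carrier protein Igfbp3 read -0.15 to 0.91 against -2.44 to -0.53, on 4 arrays of each group, with no overlap (difference 1.69, SE 0.39). Of 11 measured genes of the insulin-like growth factor axis, these 2 stood at an unadjusted p under 0.05 (18.2%, against 6.28% of all features). The 5 beta6 null arrays ranged from -1.35 to 0.97 for Igf1 and from 0.002 to 0.62 for Igfbp3.

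Aass, the enzyme that starts lysine breakdown, was high in the TGFb1 group and near the array median in both others. It read 1.67, 1.92, 3.11, 2.26 and 0.75 in the TGFb1 group, -0.32 to 0.35 in wild type and 0.03 to 0.49 on 4 beta6 null arrays. The difference from wild type was 1.93 (SE 0.37, adjusted p = 0.428) and that from beta6 null 1.75 (adjusted p = 0.0596). Neither passed. Hmox1, haem oxygenase 1, followed a like order, at 0.76 to 1.82 in the TGFb1 group, -0.09 to 0.28 in wild type and -0.69 to 0.43 in beta6 null. Its difference from wild type was 1.06 (SE 0.29), with a gap of 0.49 between the groups.

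**Figure D1:**
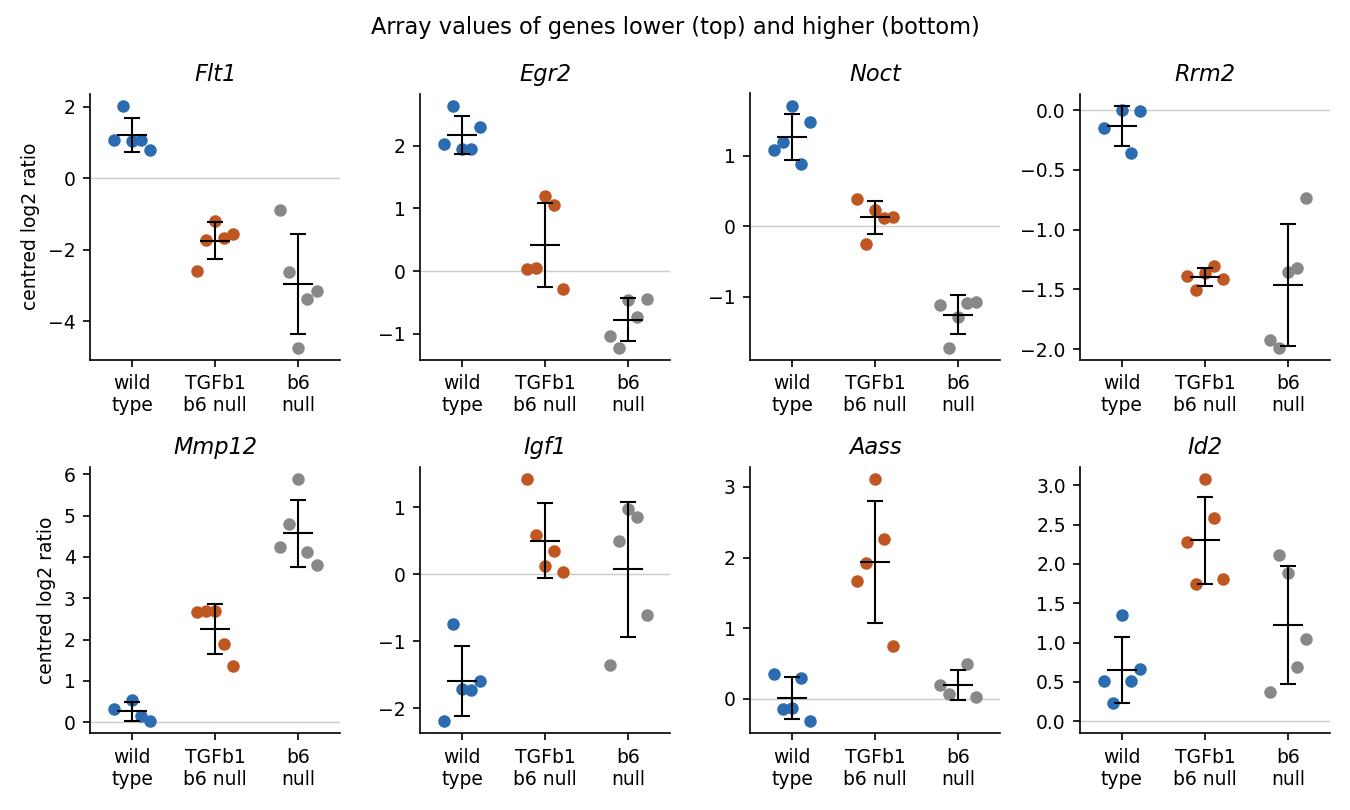
Centred log2 ratios (y axis) of 8 genes on every array of wild type (blue), the TGFb1 group (orange) and beta6 null (grey), with group means and SD as black bars; y scales differ between panels. Flt1, Egr2, Noct and Rrm2 (top) are lower and Mmp12, Igf1, Aass and Id2 (bottom) higher on all TGFb1 arrays than on all wild type arrays with a value.

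Gsn, the actin-severing protein gelsolin, read -0.21 to 0.48 against -1.72 to -0.73 (difference 1.19, SE 0.31, gap 0.52). Bin1, a membrane-curving protein, read -0.11 to 0.54 against -2.34 to -0.56 (difference 1.41, SE 0.36, gap 0.45), and wild type replicate 2 was the lowest array. Ccdc59, whose product binds the lung transcription factor TTF-1, read -0.06 to 0.60 against -1.78 to -0.90 on 4 wild type arrays (difference 1.67, SE 0.33, gap 0.84). These genes shared complete separation of the groups on the arrays with a value. Ldhb, a lactate dehydrogenase subunit, had the larger difference of 2.09 (SE 0.53), but its TGFb1 replicate 3 (-0.30) lay within the wild type range of -2.04 to -0.16.

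The 10 genes with the largest rises and the 10 with the largest falls in beta6 null were then read in the TGFb1 group. Both differences use the same 5 wild type arrays, so they are set side by side and not correlated. Among the rises, the adaptor Lat2 differed from wild type by 1.61 (SE 0.64) in the TGFb1 group and by 4.72 in beta6 null. The retinol carrier Rbp4 differed by 0.65 (SE 0.62) and 4.22, and the lipase-like Plbd1 by 0.02 (SE 0.46) and 3.51. For the dipeptidyl peptidase Dpp4, which lies near Itgb6, the differences were 0.31 (SE 0.62) and 3.56. The membrane protein Pmp22 differed by 0.21 (SE 0.77) and 3.52, the protein kinase C substrate Marcks by 1.23 (SE 0.51) and 3.76, and the lectin receptor Clec10a by 1.03 (SE 0.60) and 3.47. Cd93, a receptor of myeloid and endothelial cells, differed by 1.93 (SE 0.49) and 3.67, Wfdc18 by 0.92 (SE 0.39) and 3.38, and Mmp12 by 1.997 and 4.31. In the TGFb1 group, Mmp12 and Cd93 thus stood highest above wild type among these 10, and Cd93 had no overlap between the groups (-0.49 to 1.52 against -2.04 to -1.43).

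Among the falls, the oxidised LDL receptor Olr1 differed from wild type by -0.22 (SE 0.31) in the TGFb1 group and by -3.06 in beta6 null. Its TGFb1 arrays read -1.10 to -0.08 and its wild type arrays -0.96 to 0.13. The deSUMOylating protein Desi1 differed by -0.48 (SE 0.34) and -3.28, the 2′-5′-oligoadenylate synthetase Oas3 by -0.69 (SE 0.39) and -3.19, Tpra1 by -0.83 (SE 0.33) and -3.33, and 5430440P10Rik by -0.75 (SE 0.49) and -2.93. Fabp1, a fatty acid binding protein, differed by -0.75 (SE 0.34) and -3.28. Prdm1 differed by -1.47 and -3.28, Egr2 by -1.76 and -2.95, Wwtr1 by -2.26 and -3.40, and Flt1 by -2.95 and -4.16. The 10 genes thus ran from Olr1, whose groups overlapped except for wild type replicates 3 and 5 at the top and 1 TGFb1 array at the bottom, to Flt1, whose groups did not overlap.

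The 5 TGFb1 arrays did not behave alike on genes raised in beta6 null. Lat2 read 2.88 and 2.78 on TGFb1 replicates 1 and 2 but 0.63, 0.75 and 0.13 on replicates 3 to 5, against -0.49 to 0.08 in wild type. Rbp4 read 3.20 and 2.07 on replicates 1 and 2 and -0.30 to 0.34 on the rest, against 0.14 to 0.65 in wild type. Pmp22 read 2.51 and 2.56 against -1.44 to 0.17, while wild type read -0.44 to 1.64. S100a4, a calcium-binding protein of motile monocytes, read 2.96 and 2.98 against 0.70 to 1.41, with wild type at 0.08 to 0.88. Replicates 1 and 2 were thus above the other 3 TGFb1 arrays and above every wild type array for these 4 genes. The other 3 arrays were not all within the wild type range. They lay above it for Lat2, and reached above it for S100a4 and below it for Rbp4 and Pmp22.

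Replicates 1 and 2 were the 2 highest of the 5 TGFb1 arrays for 8 of the 10 largest rises, all but Mmp12 and Dpp4. Over all 10925 features with values on the 5 arrays that order occurred in 16.3%, and over the features called higher in beta6 null in 20 of 45 (44.4%). The median of the 48 features called higher in beta6 null was 0.69, 0.75, 0.08, 0.28 and 0.18 on TGFb1 replicates 1 to 5. It was -0.65 to -0.07 in wild type and 1.45 to 2.37 in beta6 null. The features were chosen by the difference between beta6 null and wild type, so the medians of those groups follow from the choice. The TGFb1 values did not enter that difference. Their spread did enter the error of the fit, so it is not independent of the choice either. Genes outside the naming rule and chosen after their values were seen went the same way: the B cell linker Blnk read 3.68 and 3.11 against 0.15 to 1.05, the anaphylatoxin receptor C3ar1 2.08 and 2.28 against -0.02 to 0.37, and Fcrls, an Fc receptor-like scavenger, 2.80 and 2.82 against 0.01 to 0.62.

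By their titles replicates 1 and 2 come first in the run 168 to 172, followed by beta6 null replicates 1 and 2 and wild type replicate 1. They correlated with each other at r = 0.492 over features, with those 3 arrays at 0.398 to 0.52 and with TGFb1 replicates 3 and 4 at 0.302 to 0.399. Outside the run, the highest r of replicate 1 was 0.338, with beta6 null replicate 3. That of replicate 2 was 0.437, with wild type replicate 3. Wild type replicate 1 was the highest wild type array for S100a4 (0.88) and the lowest for Lat2 (-0.49) and Rbp4 (0.14). Within that run Lat2 differed between the TGFb1 and wild type arrays by 3.32, Rbp4 by 2.49 and S100a4 by 2.09. Within the run 176 to 180, which holds TGFb1 replicates 3 and 4 and wild type replicates 2 and 3, they differed by 0.85, -0.59 and 0.85. Among the TGFb1 arrays the split and the title number cannot be told apart.

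The 78 features called lower in beta6 null had no such split. Their median was -0.40, -0.55, -0.18, -0.36 and -0.72 on TGFb1 replicates 1 to 5, -0.29 to 0.11 in wild type and -2.27 to -1.80 in beta6 null. Replicate 5 had the lowest median and was the lowest of the 5 TGFb1 arrays for 33 of 76 features (43.4%), against 22.5% of all features. It was also the lowest for 16 of 45 features (35.6%) called higher in beta6 null, so this order was not particular to the features called lower. The list of recruited monocyte and interstitial macrophage markers had array medians of 0.98, 0.29, -0.27, 0.10 and 0.13 on TGFb1 replicates 1 to 5, -0.05 to 0.19 in wild type and 0.37 to 1.65 in beta6 null. Of its 17 measured genes, 1 (S100a4) was higher and 0 lower at an unadjusted p under 0.05 (5.88%, against 6.28% of all features). The part of other cells in the split between the TGFb1 arrays was not tested.

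**Figure D2:**
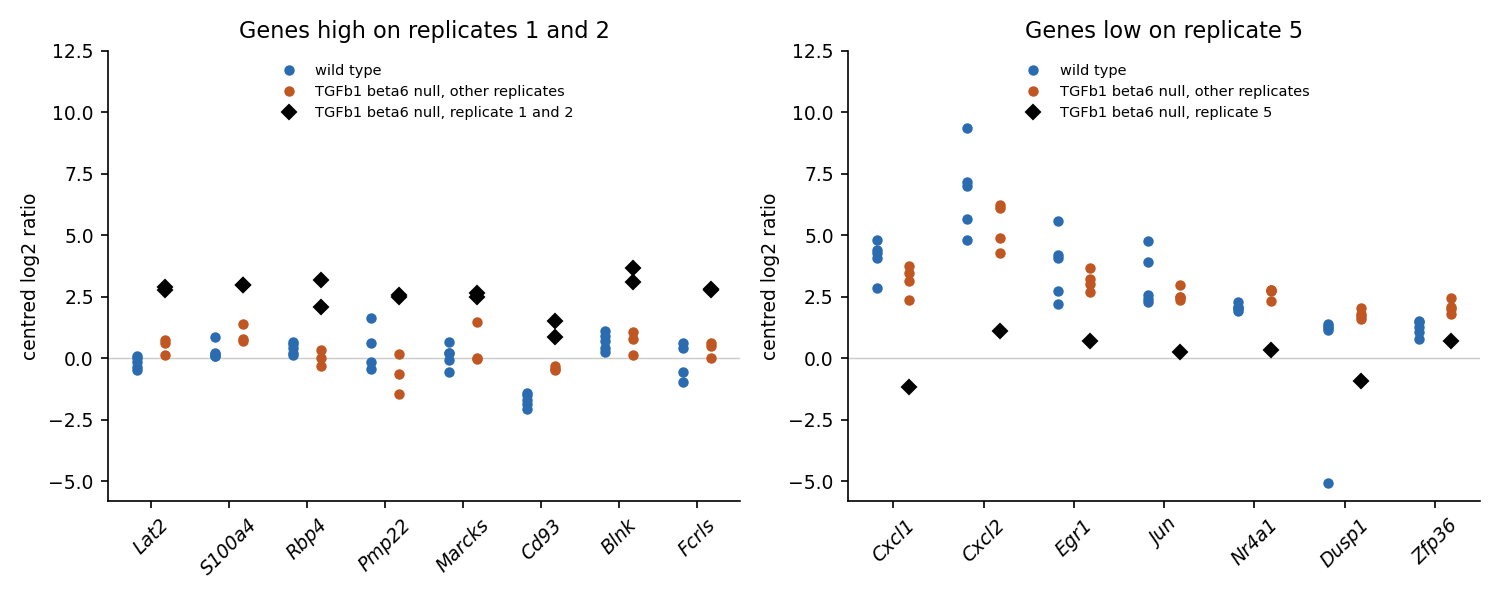
Centred log2 ratios (y axis) of single genes (x axis) on each wild type array (blue) and TGFb1 array (orange, with the arrays named in each panel as black diamonds). Replicates 1 and 2 stand above the other TGFb1 arrays for Lat2, S100a4, Rbp4, Pmp22, Marcks, Cd93, Blnk and Fcrls (left), and replicate 5 stands below them for Cxcl1, Cxcl2 and 5 immediate early genes (right).

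TGFb1 replicate 5 differed from the other 4 in immediate early genes, which cells switch on within minutes of a stimulus. Jun read 0.24 on replicate 5 and 2.35 to 2.99 on the other TGFb1 arrays, against 2.29 to 4.77 in wild type. Egr1 read 0.71 against 2.70 to 3.67, with wild type at 2.21 to 5.57. The orphan receptor Nr4a1 read 0.35 against 2.34 to 2.77, with wild type at 1.91 to 2.27. Replicate 5 was thus the lowest of the 10 arrays for these 3 genes.

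The phosphatase Dusp1 read -0.91 on replicate 5 and 1.60 to 2.03 on the other TGFb1 arrays, and the mRNA-decay factor Zfp36 read 0.71 against 1.81 to 2.46. In wild type, Dusp1 read -5.05 on replicate 2 and 1.17 to 1.40 on the rest, and Zfp36 read 0.80 to 1.505. The neutrophil chemokine Cxcl1 read -1.17 on replicate 5 and 2.37 to 3.75 on the other TGFb1 arrays, and Cxcl2 read 1.10 against 4.29 to 6.21. Jun, Egr1, Nr4a1, Dusp1 and Zfp36 were chosen for this description after their values were seen. Over the whole list of 29 immediate early factors the array median was 1.35, 0.97, 1.04, 0.96 and 0.08 on TGFb1 replicates 1 to 5 and 0.57 to 1.16 in wild type. Replicate 5 was the lowest TGFb1 array for 17 of 26 list members with values on all 5 (65.4%). By its title it belongs to a pair of arrays numbered far from the other 13, the other being beta6 null replicate 4.

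Of the pathway itself, 34 of 42 ligands, receptors and Smads of the TGFb superfamily were measured, with a median difference of -0.15 (20 of 34 below 0), and 2 (5.88%, against 6.28% of all features) stood at an unadjusted p under 0.05. They were the activin subunit Inhba, described above, and the activin receptor Acvr2a (-1.32, SE 0.53). Acvr2a read -2.49 to -0.27 on 4 TGFb1 arrays and -0.50 to 0.57 on 4 wild type arrays, so the groups overlapped. The type II receptor Tgfbr2 read -0.36 to 0.70 against -1.70 to 1.25 (difference 0.32, SE 0.50). The type I receptor Tgfbr1 read -0.67 to 2.46 in the TGFb1 group and -3.21 to 0.66 on 4 wild type arrays, and had values on too few beta6 null arrays to be tested. Smad3, which falls outside the naming rule, read 0.13 to 2.67 on 4 arrays against -1.34 to 1.55 (difference 1.41, SE 0.73). Itgb8 and Smad7 were not analysed here.

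The integrin partners of beta6 overlapped too. Itgav, the alpha v subunit, read -0.09 to 0.65 in the TGFb1 group and -1.52 to 1.23 in wild type (difference 0.33, SE 0.47). Itgb5, another partner of alpha v, read -0.99 to 3.22 against -1.35, 0.04 and 1.04 on 3 wild type arrays (difference 1.14, SE 0.89). Neither group of arrays stood apart for these 2 subunits.

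Among 34 genes known to respond to TGFb, all measured, the median difference was -0.02, with 17 above and 17 below 0. It was 0.39 over the genes measured on all 10 arrays, 0.45 within the title run 168 to 172 and -0.22 within 176 to 180, so the list had no settled direction. At an unadjusted p under 0.05, 3 were higher and 1 lower (11.8%, against 6.28% of all features). Id2, an inhibitor of helix-loop-helix factors, read 2.28, 1.75, 3.08, 2.59 and 1.80 in the TGFb1 group and 0.51, 0.22, 1.35, 0.51 and 0.67 in wild type. The groups stood 0.40 apart, and the difference was 1.65 (SE 0.38, adjusted p = 0.651). Klf10, first described as a TGFb-inducible early gene, read -0.17, -0.38, -0.34, -0.82 and -0.39 against -1.03, -1.19, -0.98, -1.15 and -1.06. All 5 TGFb1 arrays lay above wild type, and all 5 beta6 null arrays, at -2.56 to -1.82, below it. The difference from wild type was 0.66 (SE 0.22, adjusted p = 0.757), and that from beta6 null was called (1.73, adjusted p = 0.00213).

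Tsc22d3, a glucocorticoid-induced leucine zipper protein, was 0.93 higher (SE 0.35), and the integrin subunit Itgae, which TGFb induces on lymphocytes and dendritic cells, differed by -1.61 (SE 0.73) with values on 3 TGFb1 arrays. A further 3 targets were also read. Id1 read 0.48 to 1.81 against 0.39 to 0.88 (difference 0.45, SE 0.39), and Id3 read 1.24 to 3.17 against 1.99 to 2.46 on 4 wild type arrays and -0.53 on replicate 2 (difference 0.54, SE 0.59). Without wild type replicate 2 the Id3 difference was 0.003. The Smad corepressor Skil read -0.26 to 0.33 against 0.15 to 0.81 (difference -0.38, SE 0.31). In beta6 null the same 3 genes lay lower, at -2.34 to -0.13, -1.96 to -0.03 and -2.52 to -0.85.

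Genes of the alveolar macrophage state (30 of 32 measured) had a median difference of 0.31, with 18 above 0. At an unadjusted p under 0.05 stood 6 of these 30, a larger share than the 6.28% of all features. Fabp5, Ccl6 and Ctsk were higher, and Flt1, Cidec and Fabp1 lower. Fabp5, an epidermal fatty acid binding protein, read 0.29, 0.35, 0.49, 0.68 and 0.40 against -0.74, -0.49, -0.09, -0.80 and -0.30, with no overlap (difference 0.93, SE 0.23, adjusted p = 0.651). Fabp1, the liver type, went the other way but overlapped: 0.19 on TGFb1 replicate 1 and -1.30 to -0.20 on the rest, against 0.07 to 0.91 (difference -0.75, SE 0.34). The lipid droplet protein Cidec read -2.08 to -1.91 on the TGFb1 arrays and -1.59 to -0.82 on 4 wild type arrays (difference -0.75, SE 0.25). Pparg, the nuclear receptor that directs alveolar macrophage differentiation, read -1.97 to -1.18 against -3.11 to -1.46 (difference 0.70, SE 0.36), and the cytokine Il18 read -0.63 to 0.20 against -1.24 to 0.22 (difference 0.34, SE 0.28). The array medians of the list ran from -0.60 to -0.20 in the TGFb1 group and from -0.97 to -0.14 in wild type, and thus overlapped.

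Stard4, a sterol carrier, read -0.41 to 0.43 against -1.75 to -0.12 (difference 1.01, SE 0.32), and Msmo1, a sterol oxidase of cholesterol synthesis, -0.86 to -0.30 against -3.24 to -1.07, with no overlap (difference 1.21, SE 0.41). Msmo1 was the 1 of 28 genes of cholesterol and fatty acid synthesis at an unadjusted p under 0.05 (3.57%, against 6.28% of all features). Of the 28, 23 lay above 0 (median 0.45). Wild type replicate 2 had the lowest median for that list, at -2.22.

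Tissue-degrading enzymes had no common direction. Of 41 measured metalloproteinases and their inhibitors, 25 lay below 0 and the median was -0.12. Besides Mmp12, the membrane protease Adam9 was higher (1.04, SE 0.40), and Adam3 (-1.17, SE 0.33) and, outside the naming rule, Adamts9 (-0.67, SE 0.27) were lower. The cathepsins and lysosomal hydrolases (41 measured, median 0.29) had 5 higher and 0 lower at an unadjusted p under 0.05 (12.2%, against 6.28% of all features). The elastin- and collagen-degrading cathepsin Ctsk read -0.13 to 0.97 against -0.57 to 0.15 on 4 wild type arrays and -2.57 on replicate 2 (difference 1.11, SE 0.46). The acid phosphatase Acp5 was 0.97 (SE 0.41), the membrane protein Lamp2 0.84 (SE 0.32) and legumain, Lgmn, 0.99 (SE 0.44) higher.

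MHC class II presentation (16 measured of 16) had a median difference of 0.51, with 12 genes above 0 and 3 at an unadjusted p under 0.05, all higher (18.8%, against 6.28% of all features). H2-Aa, an alpha chain of the class II molecule, read 1.54, 1.46, 0.85, 0.73 and 1.33 against -0.05, -1.49, 0.12, -0.46 and -0.52. The groups stood 0.60 apart (difference 1.66, SE 0.40, adjusted p = 0.651). The peptide-loading chain H2-DMb1 read 0.40 to 0.58 on TGFb1 replicates 1 to 4 and -0.12 on replicate 5, against -2.47 to 0.02 (difference 1.39, SE 0.40), and Lgmn was the third. Over the genes measured on all 10 arrays the list median was 0.16, and within the title runs it was 0.63 (168 to 172) and -0.21 (176 to 180). The array medians of the list overlapped, at -0.42 to 0.64 in the TGFb1 group and -0.70 to 0.05 in wild type.

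Chemokines and their receptors (47 measured) had a median of -0.01, with 3 higher and 3 lower at an unadjusted p under 0.05 (12.8%, against 6.28% of all features). Higher were Ccl6 (1.53, SE 0.43), Ccl9 (1.36, SE 0.43; 1.12 to 2.07 against -0.58 to 1.04) and Ccl5 (0.82, SE 0.35; -0.20 to 0.33 against -1.72 to -0.36), ligands that attract monocytes and lymphocytes, the last 2 with no overlap. Lower were the receptor Cxcr6 (-1.57, SE 0.41) and the neutrophil chemokines Cxcl2 (-2.27, SE 0.94) and Cxcl1. Cxcl1 read 2.84 to 4.79 in wild type. Cxcl2 read 9.36 on wild type replicate 2 and 4.79 to 7.15 on the other wild type arrays. The low values of TGFb1 replicate 5 given above entered both of the last 2 differences, and the high value of wild type replicate 2 entered that of Cxcl2.

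Markers of other cells were read on the same arrays. Sftpc, the surfactant protein C of alveolar type II cells, read -0.60, -1.43, -1.38, -1.29 and -0.61 in the TGFb1 group and -1.95, -3.50, -3.30, -4.00 and -1.85 in wild type. The groups stood 0.42 apart (difference 1.86, SE 0.45, adjusted p = 0.651). It was the 1 of 30 measured lung epithelium genes at an unadjusted p under 0.05 (3.33%, against 6.28% of all features). That list had a median difference of 0.04. The club cell gene Scgb1a1 read -1.27 to -0.27 against -0.60 to -0.13 on 4 wild type arrays and -3.96 on replicate 2. S100a8, a neutrophil and monocyte calcium-binding protein, read -0.15, 1.02, 0.48, 0.75 and 0.44 against -0.92 to -0.28, with no overlap (difference 1.20, SE 0.29). Of the 9 measured neutrophil genes, 2 stood at an unadjusted p under 0.05 (22.2%, against 6.28% of all features). S100a8 was higher and Mpo, myeloperoxidase, lower (-1.28). The direction of that list was not stable: its median was -0.42, but 0.40 over the genes measured on all 10 arrays, and 0.26 and -0.10 within the title runs 168 to 172 and 176 to 180.

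The T cell gene Cd3e read -0.10 to 0.38 against -0.02 to 0.57, and the T and NK cell list (17 measured) had a median of -0.04. Dendritic cell (15 measured), B and plasma cell (13), fibroblast and endothelium (11) and eosinophil, basophil and mast cell genes (11) had medians of 0.10, -0.11, -0.04 and -0.18. The erythroid list had 5 measured genes and a median of 0.54, with wild type replicate 2 at -3.55. At an unadjusted p under 0.05 stood 0 of its genes (0.0%, against 6.28% of all features). Without that array the erythroid median turned to -0.21. The part of other cells in the differences of Sftpc, S100a8 and H2-Aa was not tested.

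Oxidative phosphorylation (0.58) and cytosolic ribosomal proteins (0.55) had the highest list medians, followed by the erythroid (0.54) and MHC class II (0.51) lists. Lists of mitochondrial ribosomal, translation and proteasome genes, with lower medians, are described beside them. Of 58 measured cytosolic ribosomal proteins, 51 lay above 0, the median difference was 0.55, and 23 were higher and 1 (Rpl23) lower at an unadjusted p under 0.05, or 41.4% of the list against 6.28% of all features. The array medians of the list were 0.17, 0.13, 0.02, 0.04 and -0.24 on TGFb1 replicates 1 to 5 and -0.69, -0.79, -0.40, -0.79 and -0.12 on wild type replicates 1 to 5. The groups overlapped only through TGFb1 replicate 5 and wild type replicate 5. Rpl27 had the largest difference among the named ribosomal genes, at 1.73 (SE 0.41), and read -0.16 to 0.53 against -2.70 to -1.45 on 4 wild type arrays and -0.05 on replicate 5. Rpl34 (1.07, SE 0.33) and Rpl37a (1.0, SE 0.31) were the next named. Ribosomal protein genes have many near-identical pseudogenes, and a probe may read several copies.

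Oxidative phosphorylation genes (71 measured), which encode the respiratory chain and ATP synthase, had a median difference of 0.58. Above 0 lay 61, and 15 were higher and 0 lower at an unadjusted p under 0.05 (21.1%, against 6.28% of all features). Their array medians were -0.06, 0.001, 0.08, 0.20 and -0.25 in the TGFb1 group and -0.67, -0.82, -0.20, -0.73 and -0.10 in wild type. TGFb1 replicate 5 lay below wild type replicates 3 and 5. Ndufc1, a complex I subunit, read 0.78 to 1.20 against -0.28 to 0.37 with no overlap (difference 0.71, SE 0.23), and Ndufa5, of the same complex, differed by 0.96 (SE 0.31).

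Mitochondrial ribosomal proteins (61 measured) had a median of 0.34, with 49 above 0 and 8 higher against 0 lower at an unadjusted p under 0.05 (13.1%). Mrpl44 led them, at -0.86 to -0.58 against -3.40 to -1.20 with no overlap (difference 1.51, SE 0.40). The array medians were -0.01 to 0.04 on TGFb1 replicates 1 to 4, -0.20 on replicate 5 and -0.54 to -0.13 in wild type. Translation factors and tRNA synthetases (54 measured) had a median of 0.38 with 45 above 0 and 4 (7.41%) higher, among them Eif3k (0.72, SE 0.26). The proteasome (45 measured) had a median of 0.23 with 36 above 0 and 6 (13.3%) higher, among them the ATPase Psmc5 (0.92, SE 0.33). No gene of these last 3 lists was lower at an unadjusted p under 0.05, and the share of all features at that p was 6.28%, so the translation factors lay close to it.

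In beta6 null against wild type, which uses the same wild type arrays, the medians of the cytosolic ribosomal, oxidative phosphorylation and mitochondrial ribosomal lists were 0.10, 0.04 and -0.11. Over 29 alternatives the median in the TGFb1 group ran from 0.43 to 0.66 for cytosolic ribosomal proteins, from 0.43 to 0.68 for oxidative phosphorylation and from 0.27 to 0.50 for mitochondrial ribosomal proteins, and was above 0 in each. Within the title runs 168 to 172 and 176 to 180 the medians were 0.94 and 0.62, 0.71 and 0.58, and 0.51 and 0.34 for the same 3 lists. The array medians of the 2 groups overlapped in each of the 54 lists with at least 5 measured genes. The part of RNA quality, dye or array in these shifts was not tested.

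**Figure D3:**
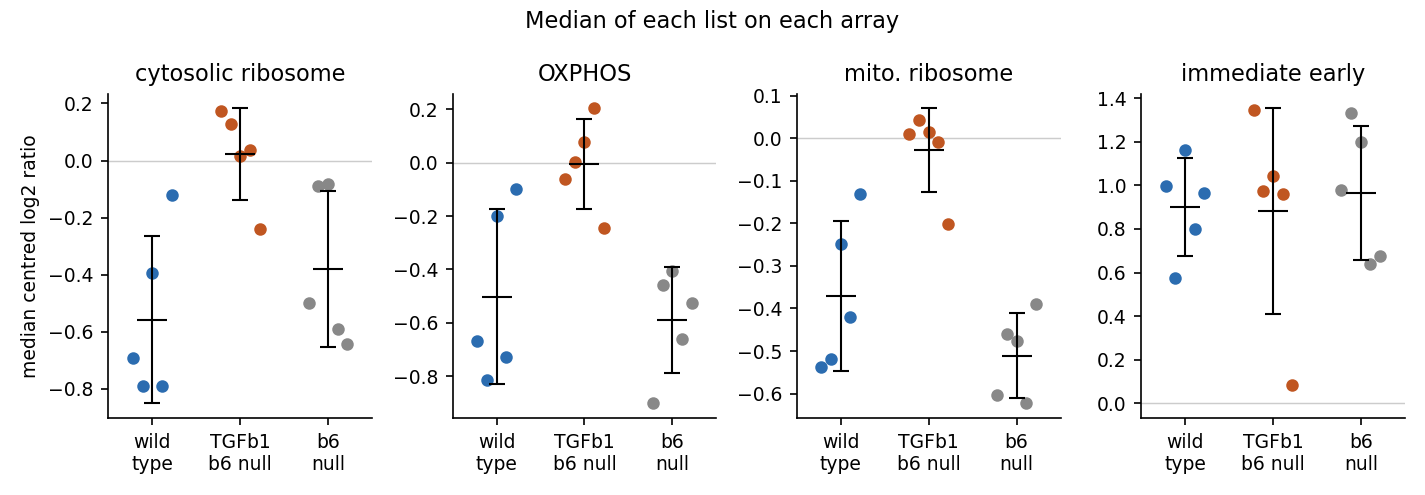
Median centred log2 ratio (y axis) of 4 gene lists on every array of wild type (blue), the TGFb1 group (orange) and beta6 null (grey), with group means and SD as black bars; y scales differ between panels. In the ribosomal and OXPHOS (oxidative phosphorylation) panels TGFb1 replicates 1 to 4 lie at -0.06 to 0.20, above every wild type array. Replicate 5 lies within the wild type range there. In the immediate early panel TGFb1 replicate 5 lies apart at 0.08.

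The large gene families lay near the median of all features. The solute carriers (200 measured) had a median difference of 0.04, with 4 higher and 5 lower at an unadjusted p under 0.05 (4.5%). The zinc finger proteins (121) had -0.04, with 4 higher and 2 lower (4.96%), against 6.28% of all features. Protocadherins and cadherins (45) had a median of 0.04, keratins (25) 0.12 and olfactory and vomeronasal receptors (38) 0.03. Other lists lay higher but leaned on wild type replicate 2, one of the 2 widest arrays. The actin cytoskeleton list (36 measured) had a median of 0.40 with 27 above 0, and 0.13 without the 2 widest arrays. The oxidative stress and glutathione list (48) had a median of 0.28 with 34 above 0, and 0.13 without them. The V-ATPase (17 measured, median 0.26) turned to -0.05 without them. Besides Hmox1, the glutathione transferase Gsto1 was higher with no overlap (-0.89 to -0.34 against -2.62 to -1.07, difference 1.04, SE 0.30). The chaperones (81 measured) had a median of 0.15 with 8 higher and 0 lower at an unadjusted p under 0.05 (9.88%, against 6.28% of all features), led by the heat shock protein Hspa1a, at 2.07 to 4.54 against 0.97 to 1.38 on 4 wild type arrays and 2.43 on replicate 3 (difference 1.75, SE 0.47).

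**Figure D4:**
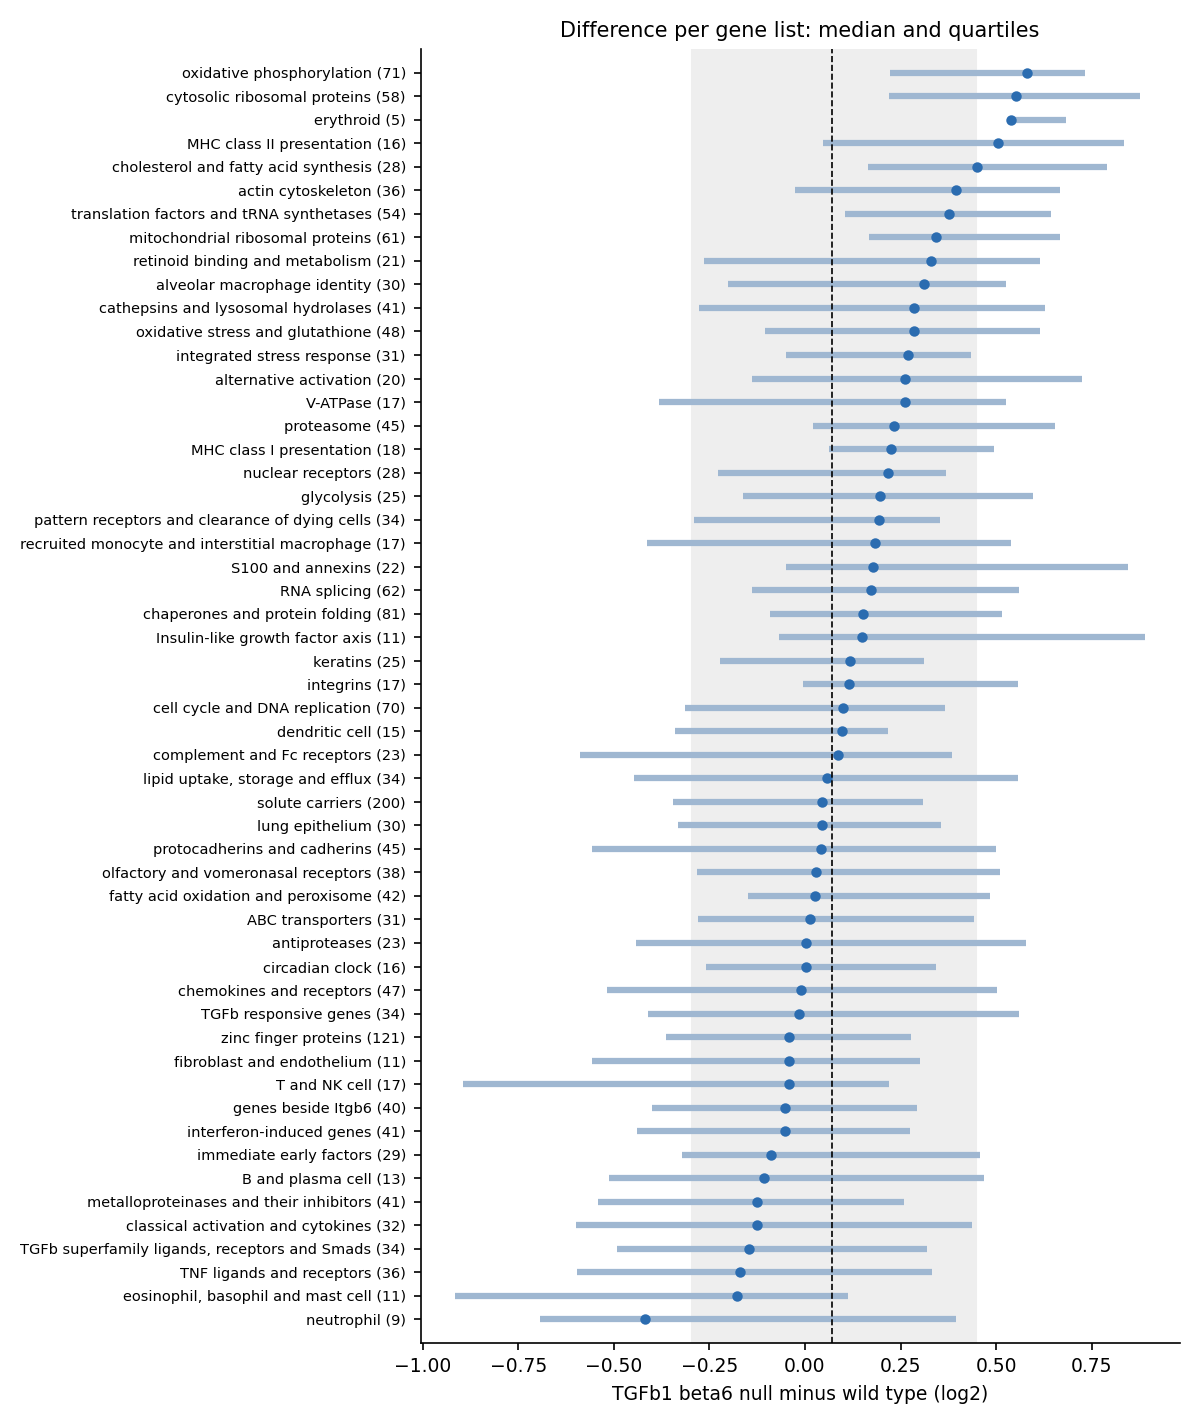
Median (point) and quartiles (bar) of the difference between the TGFb1 group and wild type (x axis, log2) for each of the 54 gene lists with at least 5 measured genes (y axis, number measured in brackets). The dashed line and grey band are the median, 0.07, and quartiles of all 13273 features; oxidative phosphorylation (0.58) and cytosolic ribosomal proteins (0.55) lie farthest to the right. Neutrophil genes (-0.42) lie farthest to the left, a position that turned to 0.40 over genes measured on all 10 arrays.

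Genes close to a disrupted allele tend to be inherited with it, so the 20 measured genes on either side were read by gene order. Their median difference was -0.05, with 20 of 40 above and 20 below 0. At an unadjusted p under 0.05, 1 was higher and 1 lower (5.0%, against 6.28% of all features). Gca, the calcium-binding protein grancalcin, 10 measured genes from Itgb6, read -0.94, -0.64, -1.55, -0.87 and -1.75 against -2.45, -1.996, -2.68, -3.17 and -2.08, with no overlap (difference 1.33, SE 0.41). Beta6 null arrays, which share the disrupted allele, read -5.10 to -2.91 for Gca and overlapped with wild type replicate 4. Their difference from wild type was -1.28 (SE 0.41, limma, adjusted p = 0.208) and was not called. Ly75, the endocytic receptor DEC-205, 3 measured genes away, read -2.56, -2.33, -1.71, -1.33 and -2.46 against -0.50, -1.37, -0.62, -0.87 and 0.04 (difference -1.42, SE 0.36). TGFb1 replicate 4 overlapped with wild type replicate 2, and the beta6 null arrays read -4.38 to -2.91. Dpp4, 6 measured genes from Itgb6, was among the 10 largest rises in beta6 null. It differed from wild type by 0.31 (SE 0.62) in the TGFb1 group and by 3.56 in beta6 null.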

How the data were processed

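Alveolar macrophage RNA of 5 TGFb1 beta6 null, 5 wild type and 5 beta6 null samples was read on 15 spotted 2-colour arrays, each against a common reference in the first channel. The authors deposited 1 log2 ratio per probe and array. The base was taken as 2, since values near 9.49 on a base of 10 would exceed a 16-bit scanner, and sample over reference was taken as the likely direction. Array medians within 0.05 of 0 show that the deposited values were centred; scanner, dyes, background correction and normalization are not given in the sources used here. No counts or spot intensities were used, so the number of arrays limits the precision.

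Of 17225 probes, 30 control spots were left out; 13972 had 1 gene symbol in the platform annotation, 13 had several and 3210 were not listed. Symbols were updated through Entrez IDs in RefSeq's table for 13869. Arrays were centred on their medians, and probes of a symbol were averaged. Features needed 3 or more values in each group. They entered 1 linear model over all 15 arrays in limma 3.58.1 (R 4.3.3; lmFit, then eBayes), with Benjamini-Hochberg adjustment over all features and a threshold of 0.05. A feature missing on an array was fitted on the rest. Errors are standard errors of that fit. The script was tested on simulated data. Tables and figures used Python 3.11.15, pandas 2.3.3, SciPy 1.17.1 and Matplotlib 3.10.9.

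The 55 gene lists, of which 54 had at least 5 measured genes (histones had 2), and the rule for named genes were chosen with earlier results of these data known, as was the comparison itself. Named genes were the 10 smallest p in each direction, the 10 widest gaps in each direction, up to 3 members of each list at an unadjusted p under 0.05, 20 pathway genes, and the 10 largest rises and falls in beta6 null against wild type. The rule took 151 genes. Which of them are described was decided after their values were seen. C3ar1, Fcrls, Blnk, Jun, Egr1, Nr4a1, Dusp1, Zfp36, Xist, Siglecf, Marco, Car4, Itgax, Scgb1a1, Cd3e, Cidec, Smad3 and Adamts9 fall outside the rule. So does Eif2s3y. Alternatives were other scalings, filters, weights, blocks and left-out arrays; 2 of them, without TGFb1 replicates 1 and 2 and with the run of title numbers as a block, were chosen after seeing the data.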

Additional observations from a re-analysis of the deposited data

Results flagged for a closer look

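Some values stood apart from the other arrays of their group, with a gap to the nearest array above Dixon's 95% limit for 4 or 5 arrays. Of 315 sets of a group's arrays examined, 39 (12.4%) did so. Chance gives about 1 in 20, and genes were partly chosen after their values were seen.

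Wild type replicate 2, the array with the widest values, accounted for 20 of them. It read high for Flt1 (2.03), Tpra1 (1.96) and Fabp1 (0.91), and for the list medians of classical activation and cytokines (1.29) and zinc finger proteins (0.43). It read low for Ctsk (-2.57), Ndufc1 (-0.28), Psmc5 (-2.05), Tgfb1 (-4.84), Id3 (-0.53), Bin1 (-2.34), C3ar1 (-1.20), Dusp1 (-5.05) and Scgb1a1 (-3.96). Its list medians were also low for lung epithelium (-1.36), erythroid genes (-3.55), cholesterol and fatty acid synthesis (-2.22), the proteasome (-1.24), the integrated stress response (-0.54) and the cell cycle (-0.86). Without that array the Flt1 difference was -2.74 and the Id3 difference 0.003, against -2.95 and 0.54 with it, and the erythroid median turned from 0.54 to -0.21.

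TGFb1 replicate 5 accounted for 8, all low: Jun (0.24), Nr4a1 (0.35), Dusp1 (-0.91), Cxcl1 (-1.17), H2-DMb1 (-0.12), Wfdc1 (-0.54), Desi1 (-2.21) and the mitochondrial ribosomal median (-0.20). TGFb1 replicate 1 accounted for 5: low for Tgfb1 (-2.21) and the neutrophil (-1.53) and S100 and annexin (-0.15) medians, high for Tgfbr2 (0.70) and the dendritic cell median (0.68). TGFb1 replicate 3 was high for Itgav (0.65). Wild type replicate 1 was high for S100a4 (0.88), replicate 3 low for Zeb2 (0.55) and high for Hspa1a (2.43), and replicate 4 low for Clec10a (-2.54) and Tgfbr1 (-3.21). What sets these arrays apart was not tested.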

How the results depend on the processing

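The count of features called was 0, and 1 with the 10 arrays fitted alone and with array weights (Flt1 in both), and 0 to 1 when each array was left out in turn (1 without beta6 null replicate 1, Flt1, and 1 without TGFb1 replicate 5, an unnamed probe, adjusted p = 0.0227). At an unadjusted p under 0.05 the count ran from 587 to 1194 over the other alternatives and was 443 without TGFb1 replicates 1 and 2. The count of features whose groups do not overlap, 193, was 452 without the arrays numbered apart, 382 without the 2 widest arrays and 478 without TGFb1 replicates 1 and 2, and 240 to 452 when each array was left out in turn. Fewer arrays in a group make a gap likelier by construction. It passed 1.5 times the main count without TGFb1 replicate 5 (452) and without wild type replicate 2 (382), 3 (335) or 5 (402).

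Of 87 genes with a difference in the text, 79 kept their sign in every alternative that gave a value. Plbd1 turned to -0.003 on values as deposited, -0.002 with the title suffix, -0.14 with the title form and -0.25 with the title number run as a block, -0.52 without TGFb1 replicates 1 and 2, and -0.19 to 0.31 without single arrays. Pmp22 turned to -0.057, -0.18 and -0.43 with those blocks, -1.05 without TGFb1 replicates 1 and 2, and ran from -0.27 to 0.73 without single arrays, Rbp4 to -0.40 without TGFb1 replicates 1 and 2, Dpp4 to -0.31 without wild type replicate 1 (up to 0.74 without others), and Itgav to -0.011 without wild type replicate 3 (up to 0.68). Tgfb1 turned to -0.28 with quantile normalization, -0.30 with equal spread, -0.45 with array weights and -0.73 without the widest arrays, and Tgfbr2 to -0.064, -0.11, -0.51 and -0.018. Both took the last value without wild type replicate 2 alone, with 0.63 and 0.72 as the highest without 1 array. Itgb6 turned to -0.059 with the title suffix and -0.013 with the title number run as a block and -0.15 without TGFb1 replicate 2 (up to 0.43). The cause was not tested. No paired analysis was possible because replicate numbers follow accession order and pair no arrays across groups; the run of title numbers served as a block instead, with 0 features called. Of 54 list medians, 26 kept their sign in every alternative.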
